A study of Mus musculus with 6 samples.

Results

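Immediate early genes are the members described here, 10 in all of the 49997 genes in the count tables, chosen by symbol as a set that includes Fos, Jun, Egr1 and their companions. All 10 were present in each library. Photoreceptor RNA was measured by RNA sequencing in 6 libraries, each made from both retinas of 1 mouse. The mice of both groups were Rosa26-Cas9 animals, which express SpCas9 in all cells, and were injected under the retina with an adeno-associated virus packaged in a 7m8 coat. The virus carried either an anti Nr2e3 guide RNA (3 libraries, "guide" below) or a non-targeting control guide RNA (3 libraries, "NTC" below), together with the red protein mCherry under a human GRK1 promoter, which is meant to restrict mCherry to photoreceptors. Injection was at postnatal day 21 in the series text and at 4 weeks in the treatment protocol. Retinas were taken 6 months later and dissociated with papain, and about 100000 mCherry-positive cells per library were sorted. Guide 1 came from a male, guide 2 and guide 3 from females, and all 3 NTC libraries from males, so that sex is partly confounded with group. mCherry marks cells that took up the virus and does not show whether Nr2e3 was edited in them.

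Immediate early genes are transcribed within minutes of a stimulus without a need for new protein synthesis, and their mRNAs are short-lived. Calcium and growth factor signals reach them through the MAP kinases, serum response factor with its ETS partners, and CREB. In the retina they are known to respond to light, to injury and to the handling of tissue, and enzymatic dissociation is a known inducer in many cell types. The products fall into the AP-1 factors (Fos, Fosb, Jun, Junb), the zinc finger factor Egr1, small early response proteins (Ier2, Ier3), and brakes on the response (Btg2, Dusp1, Zfp36).

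The promoters below are shown because their genes were among the members that varied widely between libraries (Fos, Fosb, Zfp36) or were the abundant pair that was lower in guide libraries (Btg2, Ier3). Each is the 200 bases before a RefSeq start site on GRCm38.p6, 5′ to 3′ on the strand of the gene, and the start used for Fosb lies inside the gene's outer bounds. Capitals mark the CRE half-site TGACG on either strand, the full CRE TGACGTCA in which 2 half-sites overlap, the TATA box core TATAA on either strand, and the CArG box bound by serum response factor.
Fos, chr12:85473690-85473889, plus strand: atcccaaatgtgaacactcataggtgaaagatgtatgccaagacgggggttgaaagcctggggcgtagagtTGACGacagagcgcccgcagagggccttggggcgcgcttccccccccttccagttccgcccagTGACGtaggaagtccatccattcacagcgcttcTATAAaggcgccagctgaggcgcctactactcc
Fosb, chr7:19310046-19310245, minus strand: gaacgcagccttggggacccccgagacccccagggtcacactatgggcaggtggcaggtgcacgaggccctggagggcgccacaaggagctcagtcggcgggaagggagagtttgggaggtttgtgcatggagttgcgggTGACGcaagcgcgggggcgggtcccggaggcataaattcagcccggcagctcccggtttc
Zfp36, chr7:28379229-28379428, minus strand: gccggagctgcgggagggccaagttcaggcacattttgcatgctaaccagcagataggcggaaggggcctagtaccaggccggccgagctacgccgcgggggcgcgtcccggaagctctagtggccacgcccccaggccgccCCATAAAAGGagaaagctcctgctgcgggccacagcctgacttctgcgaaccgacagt
Btg2, chr1:134079156-134079355, minus strand: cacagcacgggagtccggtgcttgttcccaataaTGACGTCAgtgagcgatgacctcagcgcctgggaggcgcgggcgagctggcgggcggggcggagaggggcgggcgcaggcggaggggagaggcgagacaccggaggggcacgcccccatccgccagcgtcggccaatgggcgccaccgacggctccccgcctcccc
Ier3, chr17:35821513-35821712, plus strand: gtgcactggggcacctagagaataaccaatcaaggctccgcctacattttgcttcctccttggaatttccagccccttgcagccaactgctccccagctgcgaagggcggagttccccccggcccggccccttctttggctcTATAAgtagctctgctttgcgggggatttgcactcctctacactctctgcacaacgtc
Entries for 8 of the 10 members were matched, and Egr1 and Ier2 were not. Over the 250 bases before the start, the half-site TGACG was present in 5 of these 8 members and in 17.8% of all 32851 promoters of the same length. The full CRE was present in 2 of 8 (Btg2 and Dusp1) and in 1.55% of all promoters. TATAA was present in 2 of 8 (Fos and Ier3) and in 22.8%, and the CArG box in 1 of 8 (Zfp36) and in 1.47%. The Egr1 site GCGNGGGCG was present in Fosb, Btg2 and Zfp36 (3 of 8) and in 4.70% of all promoters, and the AP-1 motif TGANTCA in 0 of 8 and in 6.75%. The GC box GGGCGG was present in 7 of 8 and in 32.7%, and the CCAAT box in 4 of 8 and in 33.8%. These are letter matches on either strand in a short window and not shown sites of binding.

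Library depth ran from 24705561 to 33098812 gene counts in guide libraries and from 32626751 to 34286248 in NTC libraries, so that 3 counts correspond to 0.0875 to 0.121 CPM, each gene's count scaled to a common library total. Nr2e3 stood at 2024, 1773 and 2303 CPM in guide and 1695, 1608 and 1645 CPM in NTC libraries (edgeR adjusted p = 0.716, log2 fold change 0.37), a level that cannot show small insertions or deletions. Sag, the rod arrestin that marks photoreceptors, averaged 34330 ± 2948 CPM in guide and 34917 ± 1170.4 CPM in NTC libraries (SD, n = 3 each). NTC 3 stood apart from the other NTC libraries, with cone markers at 1463 CPM against 6624 and 7384 CPM in NTC 1 and NTC 2, and microglia markers higher. Cone markers summed to 11583 to 14807 CPM in guide libraries, of which Gnat2, Pde6c and Pde6h made up most, and the other 5 of 8 summed to 1764 to 3078 CPM in guide libraries, against 4486, 5380 and 1087 CPM in NTC 1 to 3. Differences between the groups that NTC 3 turned round or removed are therefore also given without it.

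Compared per kilobase of exon, the members split into an abundant pair and 8 genes far below it, called low here relative to that pair. Ier3 averaged 103 and Btg2 94.5 CPM per kilobase over the 6 libraries, above 98.6% and 98.5% of 25781 detected genes. Their ranges overlapped (83.6 to 119 for Ier3 and 74.1 to 126 for Btg2). Fos came next at 6.22 CPM per kilobase (range 2.56 to 18.1), above 81.8% of detected genes and with no overlap with Btg2. Below it stood Egr1 (3.31, range 0.213 to 14.0), Ier2 (2.06), Zfp36 (1.55), Jun (0.912), Dusp1 (0.662), Fosb (0.300) and Junb (0.121), the last above 36.2% of detected genes. Egr1 lay above 73.6% and Dusp1 above 53.75% of detected genes, with Ier2, Zfp36 and Jun between them, and Fosb above 45.7%. The place of Egr1 above Ier2 rested on NTC 3, since over the other 5 libraries Egr1 averaged 1.17 and Ier2 1.91 CPM per kilobase. From Fos downward, each gene's range over the 6 libraries overlapped that of the next. Btg2 and Ier3 together made up 95.1, 92.1 and 88.3% of the summed member CPM in guide libraries and 94.8, 93.5 and 77.9% in NTC libraries.

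**Figure D1:**
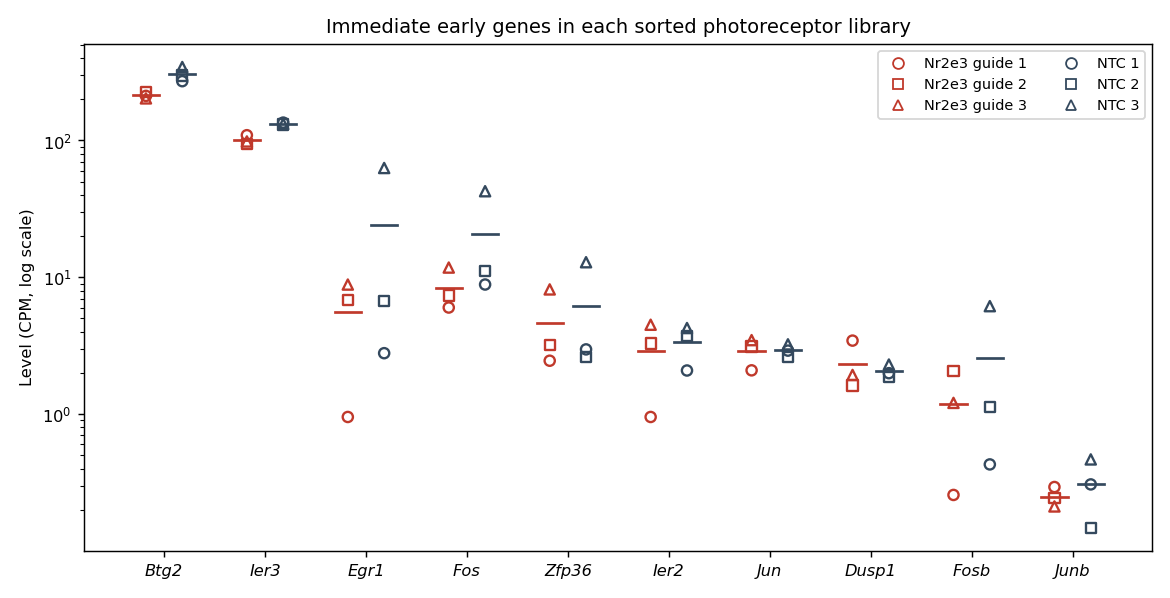
Level of each member in each library in CPM on a log axis, with Nr2e3 guide libraries in red on the left of each gene and NTC libraries in dark blue on the right; marker shapes give the replicate and short lines the group means. Btg2 and Ier3 were lower in every guide library than in every NTC library, while Egr1, Fos, Zfp36 and Fosb spread widely, with NTC 3 at the top.

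Set against NTC libraries, none of the members passed the test in guide libraries. By edgeR's quasi-likelihood test with adjustment over 17138 genes, 0 of the 9 members tested had an adjusted p under 0.05, against 0.344% of all genes tested (54 genes or 0.315% higher, 5 genes or 0.0292% lower). Junb was too low to be tested. At an unadjusted p under 0.05, 2 of the 9 were lower, Btg2 and Ier3, against 5.69% of all genes in either direction and 2.61% lower. DESeq2 and limma-voom with quality weights also called 0 of 9, against 1.59% and 1.04% of all genes, with 3 and 2 members at unadjusted p under 0.05, where 6.85% and 11.5% of all genes stood. The median log2 fold change of the 9 was -0.33 and that of all genes -0.01, and 7 of the 9 were negative, as were 51.5% of all genes. Without NTC 3 the median of the 9 was 0.08 and that of all genes 0.01, and 3 of the 9 were negative (Fos, Ier3 and Btg2). With sex as a term the median of the 9 was -1.20 and that of all genes -0.03, and 8 of the 9 were negative. In that fit guide 1 was the one guide library compared within a sex.

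Btg2, an antiproliferative partner of the mRNA deadenylase complex, lies on chromosome 1 (GRCm38, 134074865 to 134079155). It stood at 212, 226 and 203 CPM in guide libraries 1 to 3, against 271, 298 and 344 CPM in NTC libraries 1 to 3. All guide values lay below all NTC values, and NTC 3 was the highest. The log2 fold change was -0.43 (edgeR adjusted p = 0.539, SE 0.13). Ier3, a stress-inducible protein that modulates survival signalling (chromosome 17, 35821713 to 35822911), stood at 109, 94.6 and 98.4 CPM in guide libraries, against 135, 131 and 132 CPM in NTC libraries. In CPM the 3 NTC libraries agreed closely and again lay above all guide libraries (edgeR adjusted p = 0.835, log2 fold change -0.33, SE 0.13). With the TMM factors used in the test they spread more. Ier3 then stood at 113, 102 and 95.8 CPM in guide and 140, 128 and 121 CPM in NTC libraries, still without overlap. Groups did not overlap in this direction for 2 of the 9 members, against 7.55% of all genes tested. Neither difference rested on NTC 3, since without it Btg2 was at -0.38 (edgeR adjusted p = 0.495, SE 0.14) and Ier3 at -0.38 (SE 0.14, adjusted p = 0.507). Over 18 alternative settings the log2 fold change of Btg2 ran from -0.51 to -0.31 and that of Ier3 from -0.40 to -0.20, with adjusted p of at least 0.179 and 0.339. Exons of both genes overlap no other gene in GENCODE M21. Counts of Btg2 per count of Ier3, a ratio free of library scaling, were 1.94, 2.39 and 2.06 in guide and 2.01, 2.28 and 2.61 in NTC libraries and overlapped. In bulk samples such as these, fewer cells of a type and less RNA per cell cannot be told apart.

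Among the AP-1 genes, Fos and Fosb varied widely between libraries and Jun little. Fos, which pairs with Jun proteins to form AP-1 (chromosome 12, 85473890 to 85477274), stood at 6.01, 7.37 and 11.8 CPM in guide libraries, against 8.86, 11.2 and 42.6 CPM in NTC libraries. NTC 3 held 1460 Fos counts and lay 4.25-fold above the mean of NTC 1 and NTC 2, whose values overlapped those of the guide libraries. The log2 fold change of -1.21 (edgeR adjusted p = 0.926, SE 0.57) became -0.24 (SE 0.31, adjusted p = 0.917) without NTC 3. Fosb, a Fos relative (chromosome 7, 19302696 to 19310118), stood at 0.257, 2.06 and 1.21 CPM in guide libraries, against 0.429, 1.12 and 6.15 CPM in NTC libraries, again with NTC 3 highest. It had 7, 51 and 40 counts in guide and 14, 38 and 211 in NTC libraries, so its lowest values rest on few counts. The Fosb log2 fold change of -0.98 (edgeR adjusted p = 0.995, SE 1.03) changed sign to 0.65 without NTC 3. Jun, the main Fos partner (chromosome 4, 95049036 to 95052222), stood at 2.09, 3.12 and 3.47 CPM in guide libraries, against 2.91, 2.63 and 3.24 CPM in NTC libraries. Its highest and lowest libraries, guide 3 and guide 1, were both in the same group and differed 1.66-fold (edgeR adjusted p = 0.997, log2 fold change 0.06, SE 0.34). Junb (chromosome 8, 84976909 to 84978748) had 8, 6 and 7 counts in guide libraries and 10, 5 and 16 in NTC libraries, or at most 0.467 CPM, which is too few to compare. Exons of Jun share 232 bases with Junos on the opposite strand and those of Junb 173 bases with Prdx2, so that part of their reads may be lost or misplaced.

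Egr1, a zinc finger factor induced by serum and calcium (chromosome 18, 34861207 to 34864956), had the widest range of any member. It stood at 0.953, 6.80 and 8.85 CPM in guide libraries, against 2.79, 6.72 and 62.9 CPM in NTC libraries, a 66.0-fold span from guide 1 to NTC 3. NTC 3 lay 13.2-fold above the mean of the other NTC libraries. The log2 fold change was -1.99 (edgeR adjusted p = 0.995, SE 1.16) with all libraries and 0.25 (SE 0.81, adjusted p = 0.973) without NTC 3. Counts of Egr1 per count of Fos were 0.159, 0.923 and 0.751 in guide libraries and 0.315, 0.602 and 1.48 in NTC libraries, so the spread of Egr1 exceeded that of Fos. In guide 1 and NTC 1, the libraries with the lowest Egr1 level of their groups, this ratio was also the lowest of the group. Egr1 is the numerator of the ratio, so this is no separate observation.

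Among the brakes on the response and Ier2, Zfp36 was the member that varied most. Zfp36, which binds AU-rich elements and hastens mRNA decay (chromosome 7, 28376784 to 28379228), stood at 2.46, 3.20 and 8.16 CPM in guide libraries, against 2.97, 2.63 and 12.9 CPM in NTC libraries. Both replicate-3 libraries were high and the other 4 lay together, and the log2 fold change of -0.32 (edgeR adjusted p = 0.995, SE 0.69) became 0.72 without NTC 3. Its exons share 125 bases with Gm44710 on the opposite strand. Dusp1, a phosphatase that switches off MAP kinases (chromosome 17, 26505591 to 26508472), stood at 3.45, 1.62 and 1.93 CPM in guide libraries, against 1.99, 1.86 and 2.30 CPM in NTC libraries. It was highest in guide 1, the library with the lowest Fos, Fosb, Egr1, Ier2, Jun and Zfp36 (edgeR adjusted p = 0.995, log2 fold change 0.26, SE 0.41). Ier2, a nuclear early response protein (chromosome 8, 84661331 to 84662852), stood at 0.953, 3.28 and 4.50 CPM in guide libraries, against 2.08, 3.75 and 4.26 CPM in NTC libraries. Replicate 1 was lowest in both groups, and the groups overlapped (edgeR adjusted p = 0.996, log2 fold change -0.13, SE 0.56).

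**Figure D2:**
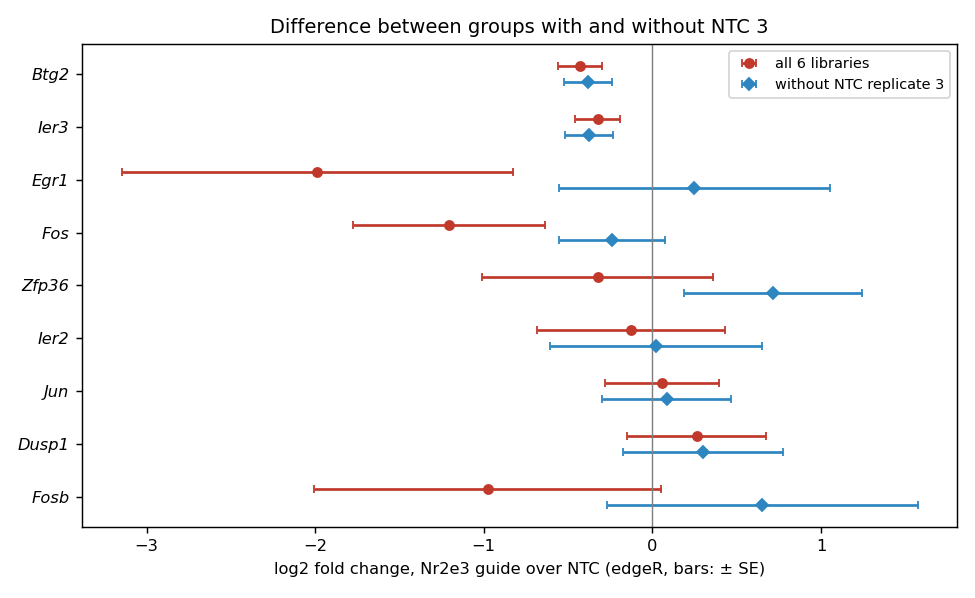
Fold change of the 9 tested members, Nr2e3 guide over NTC, on a log2 axis with bars of ± SE, for all 6 libraries (red circles) and without NTC 3 (blue diamonds). Btg2 and Ier3 stayed between -0.43 and -0.33, whereas Egr1, Fosb, Zfp36 and Ier2 changed sign and Fos was at -1.21 with NTC 3 and at -0.24 without it.

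The spread of the low members followed libraries more than groups. NTC 3 was the highest of the 6 libraries for 5 of the 9 tested members, against 32.7% of all genes tested. These were the abundant Btg2 and 4 low members (Fos, Fosb, Egr1 and Zfp36). For those 4 it was at least 3-fold above the mean of NTC 1 and NTC 2, against 6.31% of all genes. Jun and Ier2 were highest in guide 3 and Dusp1 in guide 1. Guide 1 was the lowest library for 6 of the 9, against 20.1% of all genes. The 8 members other than Btg2 and Ier3 summed to 16.5, 27.7 and 40.1 CPM in guide libraries and to 22.3, 30.0 and 135 CPM in NTC libraries. Guide 1 and NTC 1 held the lowest sums of their groups. With sex as a term, guide 1 was the one guide library compared within a sex, and it was also the lowest library for most members. The log2 fold changes in that fit were -4.50 for Egr1, -3.16 for Fosb, -1.71 for Ier2, -1.66 for Fos, -1.20 for Zfp36, -0.40 for Jun and 0.83 for Dusp1, with edgeR adjusted p of at least 0.604. Those of Btg2 and Ier3 were -0.43 and -0.20. Sex and the level of guide 1 cannot be told apart in these values.

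Markers of microglia, the resident immune cells of the retina, had their highest sum in NTC 3. That library was also the highest for Fos, Fosb, Egr1, Zfp36, Btg2 and Junb but not for Jun, Dusp1, Ier2 or Ier3. The 12 markers summed to 36.9, 174 and 130 CPM in guide libraries and to 34.7, 39.5 and 347 CPM in NTC libraries, and 12 of 12 were higher in NTC 3 than in both other NTC libraries, against 50.7% of all genes tested. None of the 12 was at 0 in all libraries. C1qb, a complement subunit, ranged from 8.21 to 37.9 CPM in guide and from 8.09 to 101 CPM in NTC libraries. Ctss, a lysosomal protease, stood at 9.86, 62.0 and 37.5 CPM in guide and 7.33, 8.91 and 85.0 CPM in NTC libraries. Guide 2 had more microglia marker RNA than guide 3 and more Fosb (2.06 against 1.21 CPM), but less Fos, Egr1 and Zfp36. NTC 2 had less microglia marker RNA than guide 2, less Fosb and Zfp36, and about the same Egr1 (6.72 against 6.80 CPM), but more Fos. The part of microglial RNA in the levels of Fos, Fosb, Egr1 and Zfp36 was not tested. Muller glia markers, led by Clu and Glul, summed to 779, 1195 and 1137 CPM in guide and 702, 707 and 1228 CPM in NTC libraries, with 2 of 10 highest in NTC 3. Clu carried most of these sums, and the other 9 summed to 166, 173 and 385 CPM in guide and 387, 396 and 204 CPM in NTC libraries, with NTC 3 the lowest of its group. Of 77 tested genes in 12 lists of cell type markers, 1 was called, against 0.344% of all genes. Cd52, a surface glycoprotein in the leukocyte list, fell to 8.62 ± 1.48 CPM in guide libraries, against 28.4 ± 6.04 CPM in NTC libraries (SD, n = 3 each, edgeR adjusted p = 0.0373). Its log2 fold change of -1.65 was -1.73 without NTC 3 (edgeR adjusted p = 0.0345), but the call was lost without any other single library (edgeR adjusted p of 0.108 to 0.224) and with sex as a term (edgeR adjusted p = 0.367). It was also lost with total gene counts alone (edgeR adjusted p = 0.0524), with the replicate block (0.132) and without both replicate-3 libraries (0.0685). The 3 tested genes of the leukocyte list had a median log2 fold change of 0.14, so Cd52 went against the rest of that list.

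**Figure D3:**
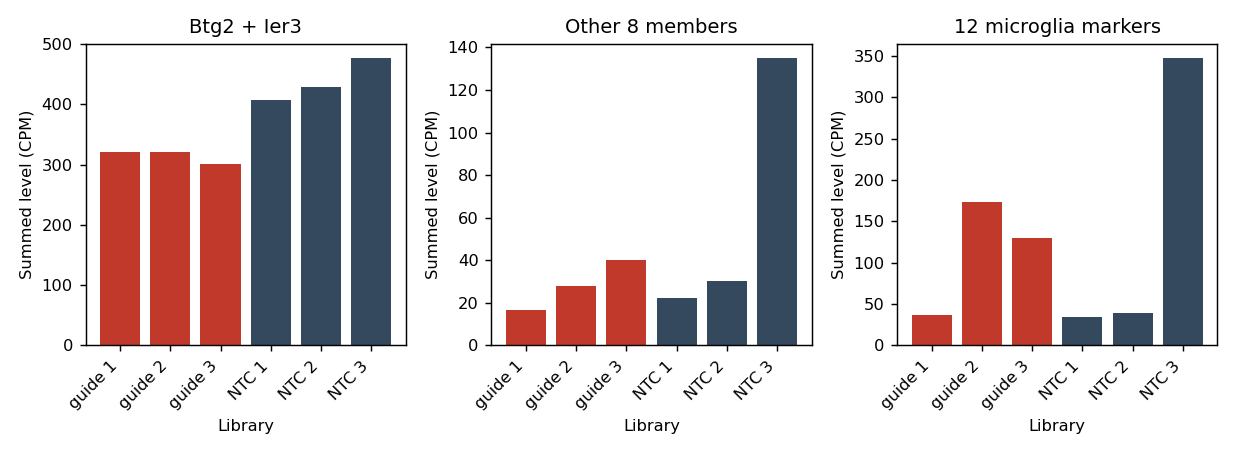
Summed level in CPM in each library of Btg2 and Ier3 (left), of the other 8 members (middle) and of the 12 microglia markers (right), with Nr2e3 guide libraries in red and NTC libraries in dark blue. NTC 3 was highest in each panel, at 135 CPM for the 8 low members and 347 CPM for the microglia markers, and guide 2 and guide 3 stood at 174 and 130 CPM for the microglia markers, against 36.9 CPM in guide 1.

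Other immediate early and early response genes also held no called gene, and some were high in NTC 3. Of 36 symbols listed, 35 were in the tables and 23 were tested, and 0 passed by edgeR in either direction, against 0.344% of all genes. The absent symbol, Cyr61, is an older name of Ccn1, which was tested. Below an unadjusted p of 0.05 were 4 of the 23, all lower (Nr4a1, Nr4a2, Klf6 and Ppp1r15a), against 2.61% of all genes. The list median log2 fold change was -0.39 with all libraries and 0.34 without NTC 3, where 0 of 24 passed, against 0.5% of all genes. It was -0.0079 without guide 1, where 0 of 24 had an edgeR unadjusted p under 0.05, against 847 of 17934 genes. NTC 3 was at least 3-fold above NTC 1 and NTC 2 for 5 of the 23 (Nr4a1, Ccn1, Socs3, Gadd45b and Plk2), against 6.31% of all genes. The tested genes of highest mean level over all 6 libraries were Nfkbia, the inhibitor of NF-kappa-B, at 28.9 ± 12.1 CPM in guide and 27.1 ± 4.81 CPM in NTC libraries (SD, n = 3 each), and Plk2, a polo-like kinase, at 2.64, 20.5 and 17.6 CPM in guide and 5.33, 5.16 and 56.7 CPM in NTC libraries. The place of Plk2 rested on NTC 3, since over the other 5 libraries Plk2 averaged 10.3, Trib1 16.5 and Klf6 14.7 CPM. Nr4a2, an orphan nuclear receptor chosen after its values were seen, stood at 0.183, 0.405 and 0.332 CPM in guide libraries and at 0.889, 0.973 and 0.875 CPM in NTC libraries, without overlap (edgeR adjusted p = 0.791, log2 fold change -1.49, SE 0.58). Fosl1 and Egr4 had 0 counts in all libraries.

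Heat shock and chaperone genes, which dissociation can also induce, held no called gene. Of 15 listed, 14 were tested, 0 passed, against 0.344% of all genes, and 1 had an unadjusted p under 0.05, against 5.69% (median log2 fold change -0.05). Hspa8, a constitutive chaperone, averaged 1596 ± 354 CPM in guide and 1659 ± 310 CPM in NTC libraries, and Hsp90aa1, an inducible HSP90, at 1149 ± 140 and 1218 ± 41.5 CPM in guide and NTC libraries (SD, n = 3 each). NTC 3 was the highest library for 10 of these 14 genes, against 32.7% of all genes, and at least 3-fold above NTC 1 and NTC 2 for 0 of them, against 6.31%. Hspa1a, the classical inducible HSP70, stood at 4.44, 2.75 and 5.29 CPM in guide and 3.03, 2.45 and 6.97 CPM in NTC libraries.

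Neither upstream regulators nor relatives of the members passed the test. Of 26 transcription factors and kinases tested from the upstream list, 0 passed by edgeR, against 0.344% of all genes, and 1 had an unadjusted p under 0.05, against 5.69% (median log2 fold change 0.05). Without NTC 3, 0 of the 26 passed and 4 had an unadjusted p under 0.05, against 1530 of 17797 genes (median 0.17). Srf, which binds the CArG box, stood at 3.48, 1.82 and 6.71 CPM in guide and 3.43, 4.37 and 10.5 CPM in NTC libraries, and Creb1, which binds the CRE, at 60.9, 51.9 and 53.6 CPM in guide and 55.0, 54.5 and 70.5 CPM in NTC libraries. The highest of the list by the mean over all 6 libraries were Rps6ka2, a ribosomal S6 kinase, at 75.4 ± 14.5 CPM in guide and 73.5 ± 43.8 CPM in NTC libraries, and Atf2, a CRE-binding factor, at 54.2 ± 3.86 and 72.5 ± 12.1 CPM in guide and NTC libraries (SD, n = 3 each). Of 17 relatives of the members outside the immediate early class, 13 were tested, 0 passed, against 0.344% of all genes, and 1 had an unadjusted p under 0.05, against 5.69%. That gene was Tob1, of the same antiproliferative family as Btg2, at 18.6, 15.1 and 6.53 CPM in guide and 5.18, 5.52 and 6.15 CPM in NTC libraries (edgeR adjusted p = 0.519, log2 fold change 1.35, SE 0.40). The median log2 fold change of the relatives was -0.28 with all libraries and -0.0028 without NTC 3. Without NTC 3, 0 of the 13 relatives passed and 4 had an edgeR unadjusted p under 0.05, against 1530 of 17797 genes. Tob2, of the same family, did not follow Btg2, at 230 ± 27.7 CPM in guide and 232 ± 18.3 CPM in NTC libraries (SD, n = 3 each). Dusp8, a relative of Dusp1, stood at 342, 196 and 405 CPM in guide and 137, 138 and 502 CPM in NTC libraries.

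**Figure D4:**
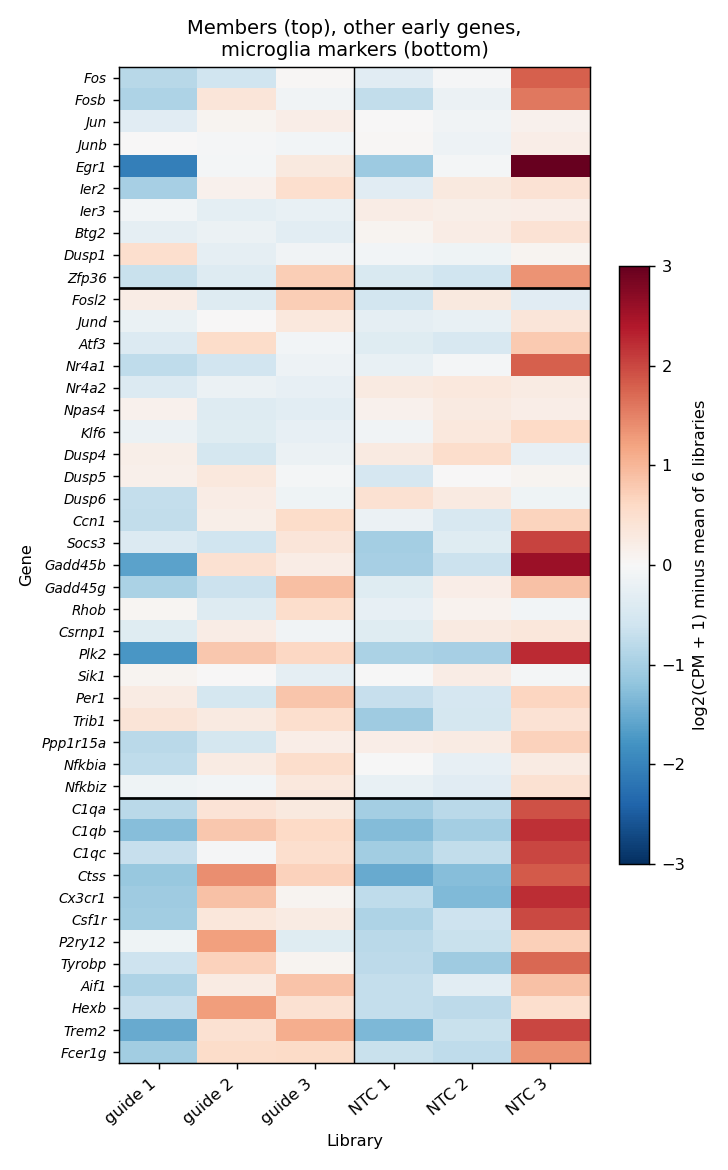
Level of the members (top block), the tested other early genes (middle) and the microglia markers (bottom) in each library, as log2(CPM + 1) minus the mean of the 6 libraries, with Nr2e3 guide libraries left of NTC libraries. NTC 3 was high for Fos, Fosb, Egr1 and Zfp36, for Nr4a1, Socs3, Gadd45b and Plk2, and for all 12 microglia markers, while Jun, Ier3 and Btg2 varied little and Junb was too low to show variation on this scale.

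Over the 6 libraries, the genes outside the members whose log2(CPM + 1) followed that of Fos most closely were Nr4a1 (Pearson r = 0.994), Myd88 (0.993), Tmem129 (0.992), Ppil6 (0.990) and Tmem179 (0.989). They were the top 5 of 9541 genes compared, of which 5.01% reached r of at least 0.9, and all values share the same 6 libraries and their scaling. Among the members, r with Fos was 0.943 for Egr1, 0.867 for Fosb, 0.866 for Zfp36, 0.745 for Btg2, 0.637 for Junb, 0.615 for Ier2, 0.512 for Jun, 0.454 for Ier3 and -0.09 for Dusp1. These are descriptions of 6 points in which NTC 3 lies far from the rest.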

How the data were processed

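The authors deposited a table for each library that gives the raw count of reads for every gene symbol. The submitters' processing notes name HTSeq 0.12.4, STAR 2.7.3a, cutadapt and DESeq2 1.42.0 and the build GRCm38 (mm10). Annotation and strand setting of the counting: not given in the sources used here. The kit, SMARTer Ultra Low per the labels' protocols, does not mark strand. The 5 entries that name no gene (21.6 to 23.7% of counts) were left out, and CPM (counts per library total) use the other 49997 genes. Groups were compared in R 4.3.3 with edgeR 4.0.16 (TMM, filterByExpr with min.count 10 and 15 counts in total, glmQLFTest, group as the only term, Benjamini-Hochberg adjusted p under 0.05), with DESeq2 1.42.0 and limma-voom with quality weights (limma 3.58.1) as alternatives. SE is the size of the log2 fold change over the root of the F statistic. All 3 tests were run on simulated counts with the same dispersion for every gene and no outlying library. That check does not cover genes that vary as widely as Fos, Fosb, Egr1 and Zfp36. The 3 libraries of a group come from separate animals, and no pair within a group differed as little as sampling noise alone would give (chi-square per degree of freedom 14.4 or more). Exon lengths and overlaps come from GENCODE M21 and coordinates and promoters from RefSeq on GRCm38.p6. Limits of 3 counts cover counting error only. The members and lists were chosen with earlier results of these data known. The text names all members, Nr2e3, up to 4 called genes per list or else those 2 of highest level, and the 5 genes most like Fos, and others chosen after their values were seen. One marker gene is not reported here.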

Additional observations from a re-analysis of the deposited data

How the results depend on the processing

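Members called remained at 0 in both directions under all 18 alternative settings. The number of genes called higher (54) and lower (5) became 201 and 70 with the DESeq2 Wald test, 160 and 19 with limma-voom, 130 and 25 with no filter on low counts, 31 and 1 with the replicate block, 6 and 0 with sex as a term, 0 and 0 among males, and 83 and 8 at an adjusted p under 0.1. With total gene counts alone, 3 were lower. Leaving out each library in turn gave 14 to 80 higher and 0 to 9 lower. Same-numbered libraries deviated together with r of 0.169, -0.12 and 0.145, and guide 1 correlated best with NTC 2. The numbers were therefore not taken as pairs, and the replicate block is given only here. With it Fos was at -0.93 (SE 0.32), Egr1 at -1.40 (SE 0.60) and Zfp36 at -0.15 (SE 0.33), with edgeR adjusted p of at least 0.742. These 3 SE were smaller than without the block, as were those of Fosb, Ier2 and Ier3. Larger with the block were the SE of Jun (0.37 against 0.34), Dusp1 (0.42 against 0.41) and Btg2 (0.133 against 0.131). Of 149 log2 fold changes of members refitted under these settings, 133 kept their sign and 16 reversed. Without both replicate-3 libraries Fosb was at 0.68, Zfp36 at 0.085 and Jun at -0.016, and Zfp36 was at 0.40 with limma-voom. Jun, near 0 with all libraries, was at -0.015 with total gene counts alone, -0.40 with sex as a term and -0.41 among males. Leaving out 1 library at a time moved Egr1 from -2.50 to 0.25, Fosb from -1.71 to 0.65 and Zfp36 from -0.97 to 0.72, with the positive end of each without NTC replicate 3. It moved Ier2 from -0.53 to 0.29, Jun from -0.052 to 0.24 and Dusp1 from -0.14 to 0.44, with the positive end of Ier2 and Jun and the negative end of Dusp1 without guide replicate 1. Without NTC replicate 3 Ier2 was at 0.024. The cause was not tested for any of these beyond the libraries left out. Depth limits Junb, with at most 16 counts per library, and Fosb, with 7 counts in guide 1 and 14 in NTC 1. All tests are limited by 3 libraries per group.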
